A study of Homo sapiens with 15 samples.

Results

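Levels of 10 cytoskeleton genes were followed in cell line-derived xenograft (CDX) tumors of cholangiocarcinoma (CCA), the cancer of the bile ducts. They are VIM, the ERM genes MSN, EZR and RDX, and the contractile genes TAGLN, ACTA2, CNN1, TPM1, MYL9 and CALD1. These 10 of the 58735 genes in the count table were chosen by symbol, with their levels in these tumors already known. The levels of the members are therefore given as a description, with fold changes and errors but without a test.

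Tumors of 3 human CCA cell lines were grown in NRG mice, which are non-obese diabetic, Rag1-/- and IL2Rgc-/- and therefore lack lymphocytes. HuCC-A1 and HuCC-T1 come from intrahepatic and EGI-1 from extrahepatic CCA, and 5 tumors of each were sequenced. The mice were 8 weeks old and all of them received phosphate-buffered saline (PBS) as vehicle, once a week for 6 weeks in the HuCC-A1 model and for 4 weeks in the EGI-1 model, while no duration is given for HuCC-T1. Each model rests on a single cell line, so that line, tumor site of origin and duration of vehicle cannot be told apart, and p-values measure only the spread between tumors of the same line.

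Vimentin, the product of VIM, forms the intermediate filaments of mesenchymal cells, and epithelial tumor cells often produce it when they take on mesenchymal features. Ezrin, radixin and moesin (EZR, RDX and MSN) are closely related proteins that tie actin filaments to the plasma membrane. Ezrin is typical of the microvilli of epithelia, radixin of the canalicular membrane of hepatocytes, and moesin of endothelial cells and leukocytes. The contractile genes encode proteins of the actin and myosin filaments of smooth muscle and myofibroblasts, several of which are also made by other cells and are classical targets of the transcription factor SRF.

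The counts per tumor totalled 20001412 to 33585265 in HuCC-A1, 26163778 to 33984103 in HuCC-T1 and 34239460 to 44067878 in EGI-1 tumors. Levels are given as CPM, the counts scaled to a library total of 1000000, with totals that TMM scaling had adjusted so that most genes keep 1 level across libraries. All 10 members passed the filter on low counts, which left 21019 genes, but MSN and CNN1 did so through HuCC-A1 and HuCC-T1 libraries alone. In a library at 0 counts, an allowance of 3 counts corresponds to at most 0.150 CPM in HuCC-A1, 0.112 CPM in HuCC-T1 and 0.0915 CPM in EGI-1 tumors, which covers counting error only.

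The epithelial nature of the tumors was checked with 10 markers of bile duct and tumor epithelium. Their summed level was 6022 to 8295 CPM in HuCC-A1, 6838 to 18478 CPM in HuCC-T1 and 15318 to 26582 CPM in EGI-1 tumors. Keratin 19 (KRT19) led the list in every model. KRT7, a keratin of bile ducts, averaged 1059 ± 371 CPM in HuCC-A1, 2109 ± 767 CPM in HuCC-T1 and 55.2 ± 17.2 CPM in EGI-1 tumors (SD, n = 5 each). It ran against most of the list in both comparisons with EGI-1. Of the 9 markers tested, 2 rose and 6 fell in HuCC-A1 against EGI-1 tumors (median log2 fold change -1.66). In HuCC-T1 against EGI-1 tumors 1 rose and 6 fell (median -0.73). Against HuCC-T1 tumors 1 rose and 6 fell in HuCC-A1 (median -0.86). The biliary marker SPP1 was below 1 CPM on average in every model. In RNA of whole tumors, fewer cells of a type and less RNA per cell cannot be told apart, and whether mouse reads were removed before counting is not given in the sources used here.

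Windows of 250 bases upstream of transcription starts were taken from RefSeq (GRCh38.p14), which held windows for 8 of the 10 members. Those of VIM and MSN are shown because they are the leading genes of the set, and that of ACTA2 because it holds matches to a contractile gene element. TAGLN and MYL9 had no entry. VIM has 1 such start, MSN has 2, and for ACTA2 the start of the smooth muscle transcript is shown. The capitals in the ACTA2 window mark 2 near-matches of the CArG box, the element bound by SRF, with 1 of the 6 central bases G or C in place of A or T. All windows are written 5′ to 3′ on the strand of the gene. The VIM window lies at chr10:17227991-17228240, those of MSN at chrX:65588127-65588376 and chrX:65667404-65667653, all on the forward strand, and that of ACTA2 at chr10:88952774-88953023 on the reverse strand.
VIM: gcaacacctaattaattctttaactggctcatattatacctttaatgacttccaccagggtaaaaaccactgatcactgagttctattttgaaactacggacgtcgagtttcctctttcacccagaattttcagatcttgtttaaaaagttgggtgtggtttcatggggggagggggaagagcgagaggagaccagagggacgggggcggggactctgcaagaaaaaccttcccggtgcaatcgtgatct
MSN, first start: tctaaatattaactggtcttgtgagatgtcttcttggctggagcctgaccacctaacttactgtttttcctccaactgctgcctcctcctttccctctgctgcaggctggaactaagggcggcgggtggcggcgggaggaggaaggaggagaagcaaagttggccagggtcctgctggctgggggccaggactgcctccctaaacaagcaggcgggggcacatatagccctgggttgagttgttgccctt
MSN, second start: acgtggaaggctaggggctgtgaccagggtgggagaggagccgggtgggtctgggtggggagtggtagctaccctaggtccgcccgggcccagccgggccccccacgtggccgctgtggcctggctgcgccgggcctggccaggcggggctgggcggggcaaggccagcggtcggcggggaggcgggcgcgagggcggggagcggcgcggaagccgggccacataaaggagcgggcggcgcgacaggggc
ACTA2: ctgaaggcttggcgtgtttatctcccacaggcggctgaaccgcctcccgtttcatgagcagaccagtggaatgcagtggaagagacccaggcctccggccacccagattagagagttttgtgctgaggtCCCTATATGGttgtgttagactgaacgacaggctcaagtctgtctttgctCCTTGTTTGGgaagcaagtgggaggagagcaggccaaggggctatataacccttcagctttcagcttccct

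The strict CArG box was in none of the members' 13 windows and in 1.16% of all 35116 windows of that length. The form with 1 base exchanged was in 5.96% of all windows and, among the members, in the ACTA2 window shown and in 1 of the 4 windows of CALD1. The window of the other ACTA2 start had no match. The motif TGANTCA, recognized by AP-1 factors, was found on either strand in 6.57% of all windows, and among the members in EZR and in the same CALD1 window. CAGGTG, an E-box bound by repressors of epithelial genes such as the SNAI family, was found on either strand in 17.5% of all windows and in none of the members' windows. The downstream MSN window has 78.0% G and C with 26 CG dinucleotides, against 57.2% and 5 in the upstream window and medians of 58.0% and 11 over all windows. Such matches describe the letters in these windows and say nothing of binding.

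HuCC-A1 tumors had more VIM, MSN, CALD1 and TAGLN RNA and less EZR and RDX RNA than EGI-1 tumors. Between these models, 6 of the 10 members did not overlap between tumors, 4 of them higher and 2 lower in HuCC-A1. Over all 21019 genes tested, the share without overlap was 44.6%, with 23.0% higher and 21.6% lower. ACTA2, CNN1, TPM1 and MYL9 overlapped. The median fitted log2 fold change of the members was 1.53, beside 0.06 over all genes.

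HuCC-A1 tumors stood below HuCC-T1 tumors in most members. Of the 10, 8 did not overlap between these models, with 7 lower in HuCC-A1 (VIM, MSN, EZR, RDX, ACTA2, TPM1 and CALD1) and MYL9 higher. The share without overlap over all genes tested was 38.8%, with 20.0% higher and 18.8% lower. TAGLN and CNN1 overlapped. The median log2 fold change of the members was -2.02, beside 0.05 over all genes.

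HuCC-T1 tumors had more VIM, MSN, ACTA2, TPM1 and CALD1 RNA and less EZR RNA than EGI-1 tumors. These 6 members did not overlap, beside a share of 37.7% over all genes tested, with 18.9% higher and 18.8% lower. RDX, TAGLN, CNN1 and MYL9 overlapped between these models. The median log2 fold change of the members was 2.48, beside 0.06 over all genes. The 3 comparisons share tumors, so that their values are not independent of each other.

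**Figure D1:**
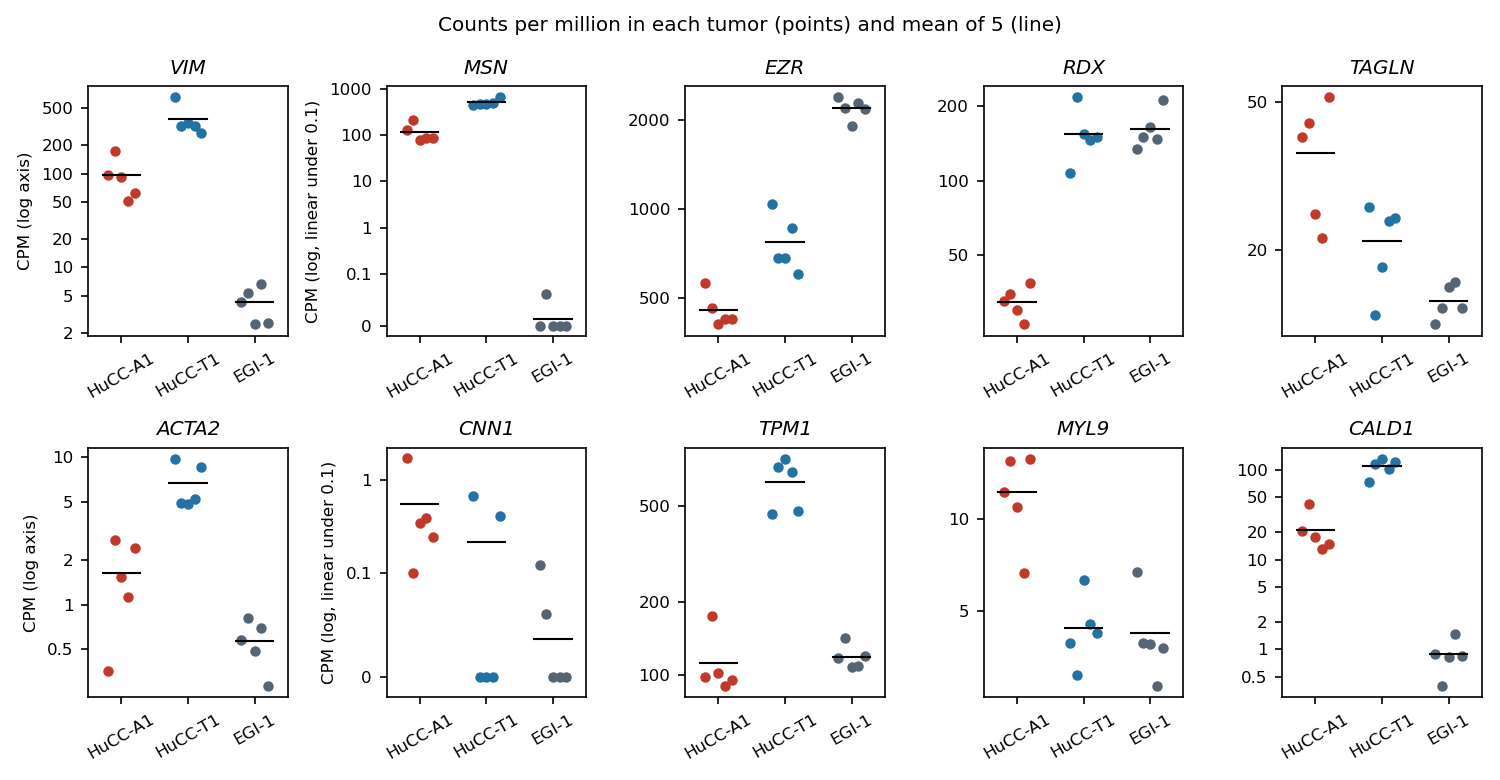
Level of each of the 10 members in CPM (vertical log axis, linear under 0.1 CPM for MSN and CNN1) in the 5 tumors of HuCC-A1 (red), HuCC-T1 (blue) and EGI-1 (grey). Points are tumors and lines are means, and the scales differ between genes. VIM, MSN and CALD1 share the order HuCC-T1 above HuCC-A1 above EGI-1, while EZR runs in the order EGI-1, HuCC-T1, HuCC-A1.

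VIM (ENSG00000026025, chr10:17228259-17237593 on GRCh38) had 97.8, 176, 91.4, 51.6 and 62.6 CPM in HuCC-A1 tumors 1 to 5. In HuCC-T1 tumors it had 652, 322, 349, 324 and 275 CPM, and in EGI-1 tumors 4.24, 5.32, 2.46, 6.64 and 2.54 CPM. Every HuCC-T1 tumor was above every HuCC-A1 tumor, and every EGI-1 tumor was below both. The fitted log2 fold change was 6.51 ± 0.42 (SE) in HuCC-T1 against EGI-1 tumors, a 90.9-fold difference, 4.50 ± 0.39 in HuCC-A1 against EGI-1 tumors and -2.01 ± 0.34 in HuCC-A1 against HuCC-T1 tumors. HuCC-T1 tumor 1 stood above the other tumors of its model. The coefficient of variation (CV) between tumors was 50.7% in HuCC-A1, 39.5% in HuCC-T1 and 42.5% in EGI-1, beside median CVs over genes with a mean of at least 1 CPM of 21.3, 26.0 and 16.8% in the same models.

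In the annotation (GENCODE release 29), 24.4% of the exon bases of VIM lie opposite VIM-AS1 and a second antisense gene. VIM-AS1 itself had 3.88 ± 1.49 CPM in HuCC-A1, 9.31 ± 2.33 CPM in HuCC-T1 and 1.72 ± 0.86 CPM in EGI-1 tumors (SD, n = 5 each). The library kit marks strand, but the strand setting of the counting is not given in the sources used here, so that reads of the overlapping bases could be assigned to either gene. Other opposite overlaps are 30.1% of the exon bases of ACTA2 (with FAS and ACTA2-AS1), 21.4% of TPM1 (with TPM1-AS and a further gene), 11.4% of TAGLN (with PCSK7) and 0.718% of EZR (with EZR-AS1). FAS, a death receptor gene, was at 24.2 ± 9.67 CPM in HuCC-A1, 37.1 ± 5.23 CPM in HuCC-T1 and 14.8 ± 0.944 CPM in EGI-1 tumors, which is the same order of the models as for ACTA2. The part of these reads in the levels was not tested. MSN, RDX, CNN1, MYL9 and CALD1 share no exon base with another annotated gene.

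MSN (ENSG00000147065, chrX:65588377-65741931) was the member with the widest gap between models. HuCC-A1 tumors held 128, 214, 77.4, 86.5 and 88.7 CPM of it, while HuCC-T1 tumors held 438, 477, 478, 505 and 652 CPM. In EGI-1 tumors 2 counts were assigned to MSN in all, both in tumor 2 (0.0605 CPM), and the other 4 libraries were at 0. No EGI-1 tumor came near the other models, and the HuCC-T1 tumors all lay above the HuCC-A1 tumors.

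Summed over tumors, MSN had 16371 counts in HuCC-A1 and 75504 counts in HuCC-T1. Relative to library size, the ratio to EGI-1 was 10006 for HuCC-A1 (95% counting interval 2770 to 82633) and 46796 for HuCC-T1 (12954 to 386413). With 2 counts in EGI-1 a fitted fold change depends on the prior count, and its log2 value in HuCC-A1 against EGI-1 was 12.96 ± 0.52 with all tumors and 14.87 without EGI-1 tumor 2. In HuCC-T1 against EGI-1 it was 15.06 ± 0.53 and 16.99 in the same settings. HuCC-A1 against HuCC-T1 tumors differed by a log2 fold change of -2.10 ± 0.27.

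The genes beside MSN on the X chromosome were examined, chosen after the MSN values were seen. LAS1L, a ribosome biogenesis gene at chrX:65512582-65534775, had 34.5 CPM in HuCC-A1, 46.1 CPM in HuCC-T1 and 29.98 CPM in EGI-1 tumors on average. ZC3H12B, between ZC4H2 and LAS1L, had 0.902, 1.58 and 0.285 CPM in the 3 models in that order. ZC4H2 had 436 counts in HuCC-A1, 161 in HuCC-T1 and 5 in EGI-1 tumors. On the other side of MSN, HEPH, an iron oxidase gene, had 68, 27 and 4 counts, EDA2R had 128, 4 and 0 counts, and VSIG4 had 1, 0 and 0 counts. The near absence of MSN reads in EGI-1 tumors was therefore not shared by LAS1L. ZC4H2, HEPH and EDA2R also had their fewest counts in EGI-1 tumors. All neighbors other than LAS1L averaged at most 2.97 CPM in any model. Over the 496 genes of the X chromosome that were tested, the median log2 fold change was 0.14 in HuCC-A1 and 0.93 in HuCC-T1 against EGI-1 tumors.

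EZR (ENSG00000092820, chr6:158765741-158819412) ran in another order. HuCC-A1 tumors held 562, 463, 408, 427 and 425 CPM of it, while HuCC-T1 tumors held 1040.2, 681, 684, 863 and 605 CPM. EGI-1 tumors had 2381, 2196, 1911, 2285 and 2180.2 CPM. The 3 models did not overlap, with EGI-1 highest and HuCC-A1 lowest. The log2 fold change was -2.26 ± 0.17 in HuCC-A1 against EGI-1, -0.76 ± 0.16 in HuCC-A1 against HuCC-T1 and -1.50 ± 0.16 in HuCC-T1 against EGI-1 tumors. The CV of EZR in EGI-1 tumors was 8.03%, the lowest of any member in any model.

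RDX (ENSG00000137710, chr11:109864295-110296722) set HuCC-A1 apart from both other models. It had 32.6, 34.7, 30.01, 26.2 and 38.4 CPM in HuCC-A1 tumors. HuCC-T1 tumors had 107, 217, 154, 146 and 150.4 CPM and EGI-1 tumors 134, 150.2, 165, 148 and 213 CPM. HuCC-T1 and EGI-1 tumors overlapped over nearly their whole range, with a log2 fold change of -0.06 ± 0.17. HuCC-A1 tumors were all lower, with log2 fold changes of -2.32 ± 0.18 against EGI-1 and -2.26 ± 0.18 against HuCC-T1 tumors.

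To compare the ERM genes with each other, levels were divided by exon length. EZR was the most abundant of the 3 in every tumor, at 137 ± 18.6 CPM per kilobase in HuCC-A1, 232 ± 52.7 in HuCC-T1 and 655 ± 52.7 in EGI-1 (SD, n = 5 each). MSN took 12.1 ± 4.47% of the summed ERM level in HuCC-A1, 25.9 ± 6.18% in HuCC-T1 and 0.0003 ± 0.0007% in EGI-1 tumors. RDX took 2.40 ± 0.434% in HuCC-A1, 5.57 ± 1.86% in HuCC-T1 and 2.84 ± 0.623% in EGI-1 tumors. The sum of the 3 genes was lowest in HuCC-A1, at 160.4 ± 24.1 CPM per kilobase, against 335 ± 41.7 in HuCC-T1 and 674 ± 51.4 in EGI-1 tumors, and the models did not overlap.

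Within HuCC-A1, the MSN share was 20.05% in tumor 2 and 9.37 to 11.1% in the other 4. Within HuCC-T1, it ran between 18.5% in tumor 1, which had the highest EZR level of its model, and 35.5% in tumor 5, which had the highest MSN and the lowest EZR level. Exon lengths are those of all annotated exons together, at 5.97 kilobases for MSN, 3.34 for EZR and 8.53 for RDX, and isoforms in use were not measured. Without the length correction the mean MSN share was 19.0% in HuCC-A1 and 35.7% in HuCC-T1, and EZR led in every tumor except HuCC-T1 tumor 5, where it took 43.0% and MSN 46.3%.

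**Figure D2:**
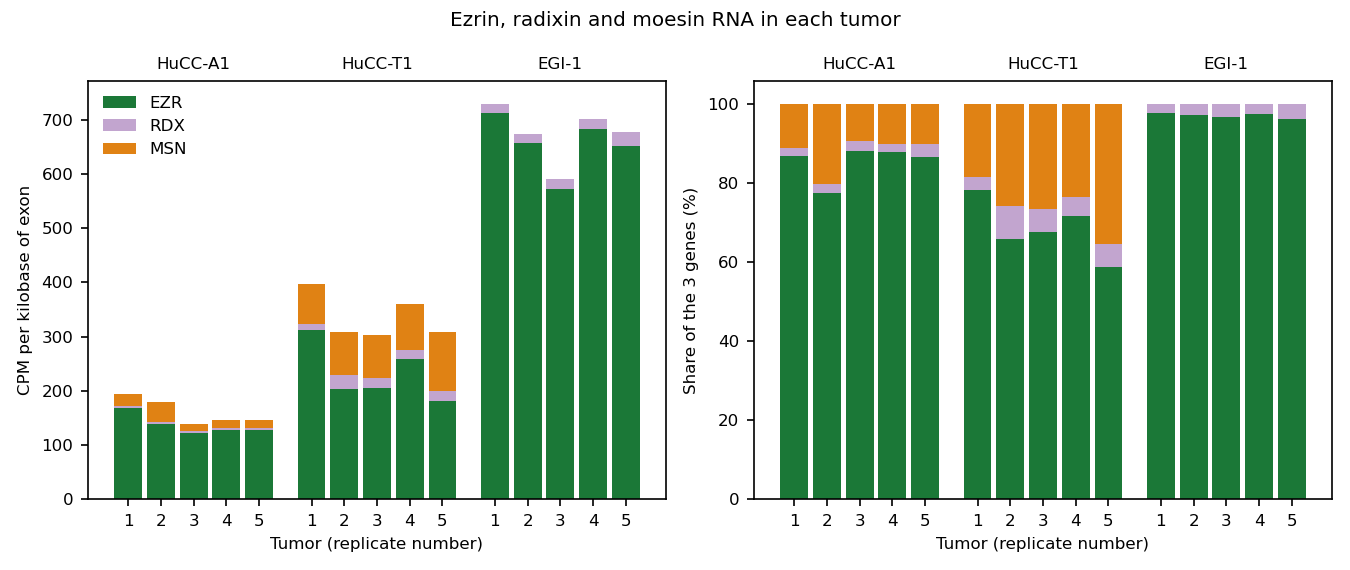
Left, level of EZR, RDX and MSN in CPM per kilobase of exon, stacked, in each tumor. Right, the share of each gene in their sum, in percent. Moesin takes 9.37 to 20.05% of the sum in HuCC-A1 tumors and 18.5 to 35.5% in HuCC-T1 tumors, and no part of the EGI-1 bars is visible as moesin.

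Among the contractile genes, CALD1 (caldesmon, an actin- and calmodulin-binding protein, ENSG00000122786, chr7:134744252-134970728) followed VIM. It had 20.6, 41.6, 17.9, 13.0 and 14.8 CPM in HuCC-A1 tumors. HuCC-T1 tumors had 71.9, 117, 132, 102 and 121 CPM, and EGI-1 tumors 0.885, 0.393, 0.829, 1.49 and 0.845 CPM. The models did not overlap. HuCC-T1 tumors were 122-fold above EGI-1 tumors (log2 fold change 6.93 ± 0.39) and HuCC-A1 tumors 24.1-fold (4.59 ± 0.36), while HuCC-A1 against HuCC-T1 gave -2.34 ± 0.31.

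TPM1 (a tropomyosin, which lies along actin filaments, ENSG00000140416, chr15:63042632-63071915) was highest in HuCC-T1. It had 97.5, 175, 102, 89.7 and 94.96 CPM in HuCC-A1 tumors. The values were 463, 729, 787, 693 and 476 CPM in HuCC-T1 and 117, 142, 107, 108 and 119 CPM in EGI-1 tumors. HuCC-A1 and EGI-1 overlapped, with a log2 fold change of -0.09 ± 0.20. HuCC-T1 tumors lay above all others, with a log2 fold change of 2.41 ± 0.21 against EGI-1 tumors, and HuCC-A1 against HuCC-T1 gave -2.49 ± 0.21.

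ACTA2 (smooth muscle α-actin, ENSG00000107796, chr10:88935074-88991339) was low throughout. HuCC-A1 tumors had 0.354, 2.75, 1.55, 1.13 and 2.42 CPM, HuCC-T1 tumors had 9.78, 4.95, 4.83, 5.26 and 8.56 CPM, and EGI-1 tumors had 0.580, 0.817, 0.484, 0.699 and 0.282 CPM. Every HuCC-T1 tumor was above every other tumor. HuCC-A1 and EGI-1 overlapped because HuCC-A1 tumor 1 lay among the EGI-1 tumors. The log2 fold change was 3.54 ± 0.46 in HuCC-T1 against EGI-1, -2.03 ± 0.43 in HuCC-A1 against HuCC-T1 and 1.51 ± 0.45 in HuCC-A1 against EGI-1 tumors.

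TAGLN and MYL9 had another order, with HuCC-A1 highest. TAGLN (transgelin, an actin-binding protein, ENSG00000149591, chr11:117199321-117204782) had 40.3, 43.9, 25.1, 21.6 and 51.5 CPM in HuCC-A1 tumors. HuCC-T1 tumors had 26.1, 13.5, 18.0, 24.0 and 24.5 CPM and EGI-1 tumors 12.7, 14.0, 15.99, 16.5 and 14.0 CPM. HuCC-A1 did not overlap with EGI-1 (log2 fold change 1.32 ± 0.23) but overlapped with HuCC-T1 (0.78 ± 0.23), and HuCC-T1 overlapped with EGI-1 (0.54 ± 0.23).

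MYL9 (a regulatory light chain of myosin II, ENSG00000101335, chr20:36541484-36551447) had 12.3, 15.5, 11.01, 6.67 and 15.8 CPM in HuCC-A1 tumors. It had 3.90, 3.08, 6.28, 4.52 and 4.204 CPM in HuCC-T1 and 6.68, 3.90, 3.87, 2.82 and 3.76 CPM in EGI-1 tumors. HuCC-A1 lay above HuCC-T1 without overlap (log2 fold change 1.48 ± 0.28). Against EGI-1 (1.54 ± 0.28) there was overlap, because the highest EGI-1 tumor slightly exceeded the lowest HuCC-A1 tumor. HuCC-T1 and EGI-1 differed by 0.06 ± 0.28 on the log2 scale.

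CNN1 (calponin 1, an actin-binding protein of smooth muscle, ENSG00000130176, chr19:11538717-11550323) was near the detection limit. HuCC-A1 tumors held 48, 2, 13, 12 and 8 counts, HuCC-T1 tumors 21, 0, 0, 0 and 13 counts, and EGI-1 tumors 4, 2, 0, 0 and 0 counts. All 3 models overlapped. The ratio to EGI-1 was 16.9 for HuCC-A1 (95% counting interval 7.45 to 47.4) and 7.02 for HuCC-T1 (2.92 to 20.5), but HuCC-A1 tumor 1 held 48 of the 83 counts of its model. The fitted log2 fold change of HuCC-A1 against EGI-1 was 3.88 ± 1.28 with all tumors, 2.86 without HuCC-A1 tumor 1 and 4.98 without EGI-1 tumor 1. Against HuCC-T1 it was 1.33 ± 1.07 with all tumors, 0.31 without HuCC-A1 tumor 1 and 2.31 without HuCC-T1 tumor 1. In HuCC-T1 against EGI-1 it was 2.55 ± 1.30, 3.66 without EGI-1 tumor 1 and 1.56 without HuCC-T1 tumor 1.

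**Figure D3:**
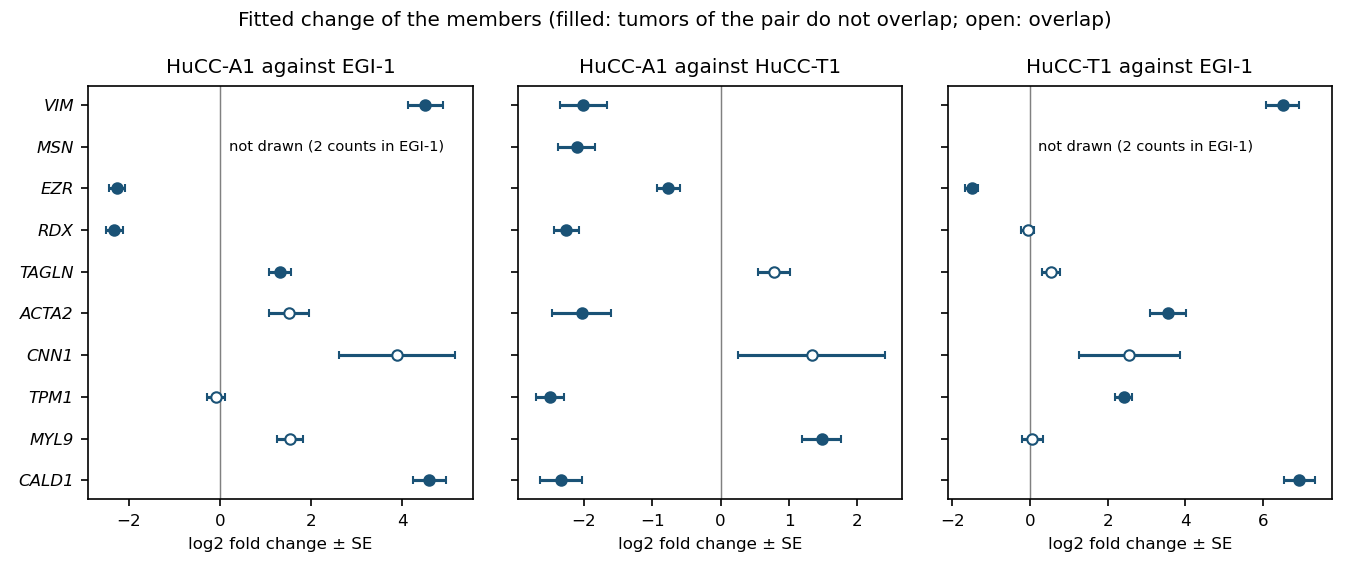
Fitted log2 fold change ± SE (horizontal) of the 10 members (rows) in the 3 comparisons. Filled points mark members whose tumors do not overlap between the models, open points those that overlap, and MSN is not drawn against EGI-1, where it had 2 counts. In HuCC-A1 against HuCC-T1 most filled points lie near -2, and EZR lies nearer to 0, at -0.76.

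Which tumor of a model stood highest differed between members. In HuCC-A1, tumor 2 had the highest level of 5 members (VIM, MSN, ACTA2, TPM1 and CALD1) and the lowest of CNN1, while tumor 4 had the lowest of 6 (VIM, RDX, TAGLN, TPM1, MYL9 and CALD1). In HuCC-T1, tumor 1 was highest for VIM, EZR, TAGLN, ACTA2 and CNN1 and lowest for MSN, RDX, TPM1 and CALD1. HuCC-A1 tumor 1 also had 11.3% of its counts in mitochondrial genes, against 4.51 to 6.74% in the other HuCC-A1 tumors. The part of this in the values of CNN1 and ACTA2 was not tested.

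Markers of other cell types were set beside the members. Of 15 markers of smooth muscle cells and pericytes, 11 averaged under 1 CPM in HuCC-A1, 13 in HuCC-T1 and 13 in EGI-1 tumors. Their summed level was 45.9 to 227 CPM (HuCC-A1), 7.40 to 16.8 CPM (HuCC-T1) and 90.1 to 171 CPM (EGI-1), led by NOTCH3, a Notch receptor that tumor cells can also make, in HuCC-A1 and EGI-1 and by MYH11 in HuCC-T1. MYH11, the myosin heavy chain of smooth muscle, had 4.199 to 11.1 CPM in HuCC-A1, 3.70 to 5.09 CPM in HuCC-T1 and 2.66 to 3.89 CPM in EGI-1 tumors. DES, the desmin gene, was at 0.7996 CPM or less in every tumor, and PLN had no count in HuCC-A1, COX4I2 none in HuCC-T1, and ACTG2, KCNMB1 and KCNJ8 none in EGI-1. NOTCH3 averaged 121 ± 62.8 CPM in HuCC-A1, 3.18 ± 3.69 CPM in HuCC-T1 and 117 ± 32.7 CPM in EGI-1 tumors. MYH11 was not lower in HuCC-T1 than in EGI-1 tumors (log2 fold change 0.41 ± 0.26). It was lower in HuCC-T1 than in HuCC-A1 tumors, with a log2 fold change of 0.76 ± 0.26 in HuCC-A1 against HuCC-T1. SYNPO2, an actin-bundling protein of muscle, was highest in HuCC-A1, like TAGLN and MYL9, at 8.75 ± 4.38 CPM in HuCC-A1, 0.673 ± 0.286 CPM in HuCC-T1 and 0.356 ± 0.256 CPM in EGI-1 tumors. Of the 6 markers of the list that were tested, 3 rose and 1 fell in HuCC-A1 against EGI-1 tumors, 3 rose and 1 fell in HuCC-A1 against HuCC-T1 tumors, and RGS5 rose and NOTCH3 fell in HuCC-T1 against EGI-1 tumors (median log2 fold change 0.22).

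The 12 fibroblast markers summed to 453 to 973 CPM in HuCC-A1, 1137 to 4049.65 CPM in HuCC-T1 and 163 to 242 CPM in EGI-1 tumors. Of the 10 tested, 6 rose and 2 fell in HuCC-A1 against EGI-1 tumors (median log2 fold change 3.78). Against HuCC-T1 tumors 3 rose and 6 fell in HuCC-A1 (median -1.79). In HuCC-T1 against EGI-1 tumors 8 rose and 1 fell (median 3.44). COL1A2, PDGFRA, DCN, POSTN and MFAP5 rose in both HuCC-A1 and HuCC-T1 against EGI-1 tumors. Different genes made up the sums. COL3A1, a fibrillar collagen, averaged 638 CPM in HuCC-A1, 8.57 CPM in HuCC-T1 and 9.28 CPM in EGI-1 tumors, while POSTN, the periostin gene, averaged 0.395 CPM in HuCC-A1, 1216 CPM in HuCC-T1 and 0.00512 CPM in EGI-1 tumors. COL1A1 averaged 17.5 ± 4.43 CPM in HuCC-A1, 375 ± 165 CPM in HuCC-T1 and 84.5 ± 18.6 CPM in EGI-1 tumors, and FBLN1, the fibulin 1 gene, averaged 10.6 ± 2.52 CPM in HuCC-A1, 269.9 ± 63.4 CPM in HuCC-T1 and 127 ± 34.0 CPM in EGI-1 tumors, both lowest in HuCC-A1. COL1A2 averaged 2.30, 8.53 and 0.108 CPM in the 3 models in that order, and DPT had no count in HuCC-T1 and EGI-1. Endothelial markers summed to 20.8 to 40.6 CPM in HuCC-A1, 14.1 to 26.1 CPM in HuCC-T1 and 5.84 to 9.26 CPM in EGI-1 tumors. Of the 10 listed, 7 averaged under 1 CPM in every model. Of the 6 tested, 5 rose and 0 fell in HuCC-A1 against EGI-1 tumors (median log2 fold change 2.52). In HuCC-T1 against EGI-1 tumors 4 rose and 1 fell (median 2.83). PECAM1 and CDH5 ran in the same order of the models as MSN, while VWF and ESAM were highest in HuCC-A1. Leukocyte markers summed to 18.2 to 54.5 CPM in HuCC-A1, 10.4 to 23.3 CPM in HuCC-T1 and 12.6 to 25.5 CPM in EGI-1 tumors. ITGAM led them in HuCC-A1, at 19.7 CPM on average, and CD14 in the other models. C1QA and C1QB were at 0 counts in every tumor. Skeletal muscle markers summed to 99.2 to 401, 13.3 to 40.0 and 25.6 to 88.6 CPM in the same order of the models, led by the troponin genes TNNI2 and TNNT3. Of the 10 listed, 8 averaged under 1 CPM in every model, and PVALB had no count in any tumor. Of the 5 tested, TNNI2 rose and CKM fell in HuCC-A1 against EGI-1 tumors (median log2 fold change -0.29). Against HuCC-T1 tumors 3 rose and 0 fell in HuCC-A1 (median 2.19). In HuCC-T1 against EGI-1 tumors 0 rose and 4 fell (median -2.48). The part of other cell types in the levels of the members was not tested.

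**Figure D4:**
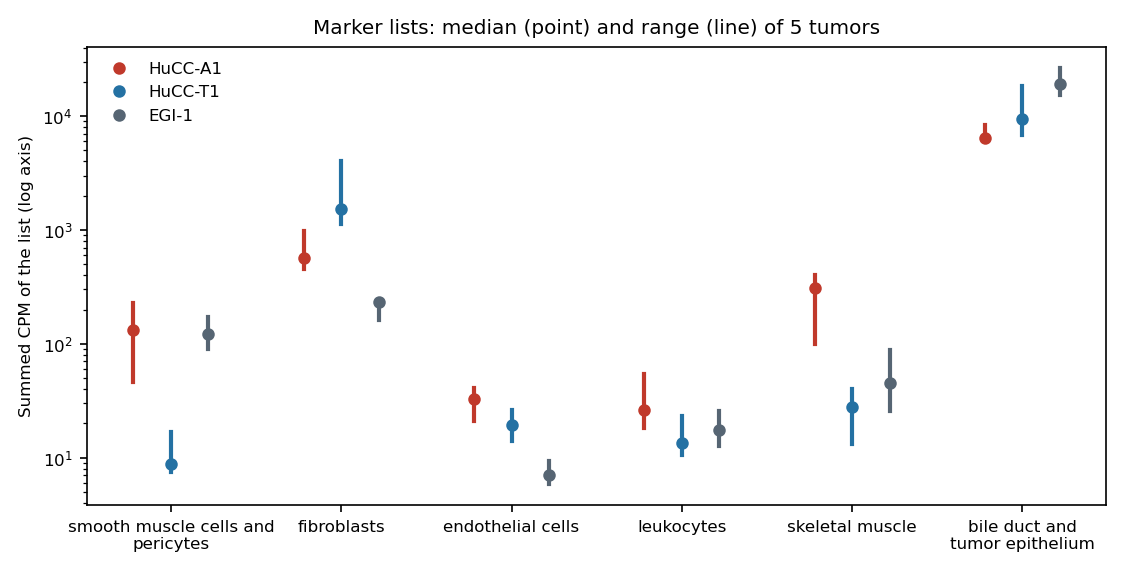
Summed CPM (vertical log axis) of 6 lists of cell type markers in HuCC-A1 (red), HuCC-T1 (blue) and EGI-1 (grey) tumors. Points are medians and lines run between the lowest and the highest of the 5 tumors. The fibroblast sum is highest in HuCC-T1 (1137 to 4049.65 CPM), and the smooth muscle sum, which NOTCH3 leads in HuCC-A1 and EGI-1, is lowest there (7.40 to 16.8 CPM).

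The genes most like VIM, MSN and TAGLN in pattern were sought among 12694 protein-coding genes, as those with the smallest root mean square difference of log2(CPM + 0.5) over the 15 tumors after centering each gene. For VIM these were CALD1 (0.56), NNMT (0.63) and AFAP1L1 (0.65). For MSN they were MTAP (0.83), FSTL1 (0.84) and RIMKLB (0.85). MTAP, a methionine salvage enzyme, averaged 31.9 ± 5.45 CPM in HuCC-A1, 189.7 ± 27.3 CPM in HuCC-T1 and 0.0116 ± 0.0260 CPM in EGI-1 tumors (SD, n = 5 each). FSTL1, a secreted glycoprotein of mesenchymal cells, averaged 71.4 ± 14.2 CPM in HuCC-A1, 289 ± 53.9 CPM in HuCC-T1 and 0.457 ± 0.190 CPM in EGI-1 tumors. For TAGLN they were ALG1 (0.25), CHPF2 (0.28) and JADE2 (0.28), which also were highest in HuCC-A1.

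For the genes around the members, 6 related lists were compared between models by edgeR's quasi-likelihood method. These lists, like the members, were chosen with earlier results of these data known, so that their counts of called genes are a description. Genes whose Benjamini-Hochberg adjusted p over all 21019 genes was under 0.05 are described as called. In HuCC-A1 against EGI-1 tumors 55.4% of all genes tested were called, 29.4% higher and 26.0% lower. In HuCC-A1 against HuCC-T1 tumors 56.3% were called, 29.1% higher and 27.2% lower, and in HuCC-T1 against EGI-1 tumors 52.3%, 27.3% higher and 25.0% lower.

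ERM partners, kinases and anchors were mostly lower in HuCC-A1. Of 16 tested, 11 fell and 2 rose in HuCC-A1 against EGI-1 tumors, with a median log2 fold change of -1.30. Against HuCC-T1 tumors 10 fell and 1 rose in HuCC-A1, with a median of -1.16, and in HuCC-T1 against EGI-1 tumors 9 fell and 3 rose, with a median of -0.76. PODXL, the podocalyxin gene, a membrane partner of ezrin, averaged 38.003 ± 15.002 CPM in HuCC-A1, 708 ± 102 CPM in HuCC-T1 and 121 ± 10.6 CPM in EGI-1 tumors. It fell in HuCC-A1 against HuCC-T1 tumors by 4.22 on the log2 scale (SE 0.23, adjusted p = 1.38e-10) and rose by 2.54 ± 0.21 in HuCC-T1 against EGI-1 tumors (adjusted p = 3.42e-08).

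CLIC5, a chloride channel family protein found with ezrin in microvilli and stereocilia, averaged 0.852 ± 0.641 CPM in HuCC-A1, 5.42 ± 2.09 CPM in HuCC-T1 and 64.9 ± 24.3 CPM in EGI-1 tumors. Its log2 fold change was -6.21 ± 0.48 in HuCC-A1 against EGI-1 tumors (adjusted p = 1.00e-08) and -3.59 ± 0.41 in HuCC-T1 against EGI-1 tumors (adjusted p = 1.69e-06). MPP1, a membrane scaffold of red blood cells, was lower in both HuCC-A1 (adjusted p = 3.32e-06) and HuCC-T1 (adjusted p = 2.38e-05) than in EGI-1 tumors and had 8 counts in HuCC-A1 and 27 in HuCC-T1 tumors against 1129 in EGI-1 tumors. Without HuCC-A1 tumor 3 its log2 fold change against EGI-1 was -8.19 in place of -6.82. ICAM1, an adhesion receptor whose tail binds ERM proteins, was higher in HuCC-A1 than in either other model, at 181 ± 105 CPM in HuCC-A1, 19.1 ± 5.68 CPM in HuCC-T1 and 20.2 ± 9.49 CPM in EGI-1 tumors. The log2 fold changes were 3.24 ± 0.40 against HuCC-T1 (adjusted p = 3.15e-06) and 3.16 ± 0.40 against EGI-1 (adjusted p = 3.90e-06).

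SDC2, a syndecan whose tail can be linked to ezrin, had 32 counts in HuCC-A1, 979 in HuCC-T1 and 3 in EGI-1 tumors. Its ratio to EGI-1 was 13.0 for HuCC-A1 (95% counting interval 4.08 to 66.5) and 405 for HuCC-T1 (138 to 1965). The call in HuCC-A1 against EGI-1 (log2 fold change 3.41 ± 1.33, adjusted p = 0.0375) was lost when any of 7 tumors was left out (adjusted p up to 0.0741) and with limma-voom (adjusted p = 0.237). Among HuCC-T1 tumors SDC2 ran from 0.208 to 17.8 CPM, and without tumor 4 the log2 fold change of HuCC-A1 against HuCC-T1 was -4.30 in place of -5.00. Without EGI-1 tumor 3 it was 4.25 in HuCC-A1 against EGI-1, and HuCC-T1 against EGI-1 moved to 9.26, in place of 8.41 with all tumors, and to 7.69 without HuCC-T1 tumor 4.

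Microvillus genes split. Of 11 tested, 5 fell and 2 rose in HuCC-A1 against EGI-1 tumors (median log2 fold change -0.89). In HuCC-A1 against HuCC-T1 tumors 5 fell and 3 rose (median -0.14), and in HuCC-T1 against EGI-1 tumors 4 fell and 3 rose (median -0.75). VIL1, the villin gene, averaged 0.362 ± 0.494 CPM in HuCC-A1, 1.85 ± 1.29 CPM in HuCC-T1 and 16.6 ± 6.32 CPM in EGI-1 tumors, with log2 fold changes of -5.41 ± 0.78 in HuCC-A1 (adjusted p = 1.56e-05) and -3.16 ± 0.68 in HuCC-T1 (adjusted p = 8.90e-04) against EGI-1. Without HuCC-A1 tumor 3 the log2 fold change of VIL1 was -6.71 against EGI-1 and -3.56, in place of -2.25, against HuCC-T1.

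USH1C, a scaffold of microvillus tips, was lowest in HuCC-A1, at 0.128 ± 0.228 CPM in HuCC-A1, 24.3 ± 14.6 CPM in HuCC-T1 and 18.9 ± 2.64 CPM in EGI-1 tumors. The log2 fold changes of HuCC-A1 were -7.16 ± 0.74 against EGI-1 (adjusted p = 3.17e-07) and -7.53 ± 0.74 against HuCC-T1 tumors (adjusted p = 2.05e-07), and -9.03 and -9.39 without HuCC-A1 tumor 1. ESPN, the gene of the actin-bundling protein espin, was higher in HuCC-A1 than in HuCC-T1 tumors (31.8 ± 7.36 CPM in HuCC-A1 against 4.71 ± 4.53 CPM in HuCC-T1, log2 fold change 2.75 ± 0.41, adjusted p = 2.41e-05), and that value was 3.54 without HuCC-T1 tumor 5. In HuCC-T1 against EGI-1 tumors ESPN fell by 2.998 on the log2 scale (adjusted p = 1.29e-05), and fell by 3.803 without HuCC-T1 tumor 5. PLS1, the plastin of epithelial microvilli, was highest in HuCC-T1, with a log2 fold change of 1.53 ± 0.20 against EGI-1 tumors (adjusted p = 8.73e-06). BAIAP2L1, a membrane-bending protein, rose by 0.82 ± 0.14 in HuCC-A1 against EGI-1 tumors (adjusted p = 9.75e-05).

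Of 14 tested paralogs of the contractile genes, 4 fell and 10 were not called in HuCC-A1 against EGI-1 tumors (median log2 fold change -0.31). In HuCC-A1 against HuCC-T1 tumors 5 rose and 5 fell (median -0.06), and in HuCC-T1 against EGI-1 tumors 2 rose and 8 fell (median -0.56). ACTG1, a cytoplasmic actin, averaged 1563 ± 263 CPM in HuCC-A1, 3756 ± 612 CPM in HuCC-T1 and 5731 ± 851 CPM in EGI-1 tumors, with a log2 fold change of -1.87 ± 0.18 in HuCC-A1 against EGI-1 tumors (adjusted p = 1.19e-07). TPM4 also fell there, by 1.12 on the log2 scale (adjusted p = 5.18e-06). MYL12A and MYL12B, the myosin light chains most similar to MYL9, were lowest in HuCC-T1. MYL12B rose by 1.74 ± 0.17 in HuCC-A1 against HuCC-T1 tumors (adjusted p = 2.41e-07). MYL12A averaged 510.2 ± 131 CPM in HuCC-A1, 156 ± 23.8 CPM in HuCC-T1 and 521 ± 81.2 CPM in EGI-1 tumors. Its log2 fold change was 1.71 ± 0.18 in HuCC-A1 against HuCC-T1 (adjusted p = 5.29e-07) and -1.74 ± 0.18 in HuCC-T1 against EGI-1 tumors (adjusted p = 5.83e-07). These 2 genes have very similar coding sequences, so that the split of reads between them is uncertain. TPM2, like TPM1, was highest in HuCC-T1, with log2 fold changes of 1.09 ± 0.31 against EGI-1 (adjusted p = 0.00692) and, for HuCC-A1 against HuCC-T1, of -1.47 ± 0.31 (adjusted p = 6.79e-04).

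Other intermediate filaments and linkers showed no common direction. Of 10 tested, 3 rose and 3 fell in HuCC-A1 against EGI-1 tumors (median log2 fold change -0.35), 1 rose and 3 fell in HuCC-A1 against HuCC-T1 tumors (median -0.27), and 2 rose and 2 fell in HuCC-T1 against EGI-1 tumors (median -0.41). DST, the dystonin gene, which links filaments to adhesion sites, averaged 430.5 ± 70.7 CPM in HuCC-A1, 747 ± 120.3 CPM in HuCC-T1 and 262 ± 31.7 CPM in EGI-1 tumors, and was called in every comparison. Its log2 fold change was 1.51 ± 0.16 in HuCC-T1 against EGI-1 tumors (adjusted p = 5.25e-07) and 0.72 ± 0.15 in HuCC-A1 against EGI-1 tumors (adjusted p = 7.65e-04). SYNM, the synemin gene, a partner of vimentin and desmin, was highest in HuCC-A1, by 1.011 ± 0.23 against EGI-1 (adjusted p = 0.00108) and 1.47 ± 0.23 against HuCC-T1 tumors (adjusted p = 3.85e-05). Of the lamin genes of the nuclear envelope, LMNB1 fell by 1.41 on the log2 scale in HuCC-A1 (adjusted p = 1.83e-06) and LMNA by 1.21 in HuCC-T1 tumors (adjusted p = 1.20e-04) against EGI-1 tumors.

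Genes of nonmuscle actomyosin and its regulators were more often lower than higher in HuCC-A1. Of 26 tested, 14 fell and 4 rose in HuCC-A1 against EGI-1 tumors (median log2 fold change -0.64), 11 fell and 6 rose in HuCC-A1 against HuCC-T1 tumors (median -0.33), and 9 fell and 7 rose in HuCC-T1 against EGI-1 tumors (median -0.14). MYLK, the kinase that phosphorylates MYL9, averaged 6.05 ± 3.05 CPM in HuCC-A1, 34.5 ± 14.8 CPM in HuCC-T1 and 53.2 ± 2.63 CPM in EGI-1 tumors. HuCC-A1 tumors, which had the highest MYL9 level, thus had the lowest MYLK level, with log2 fold changes of -3.13 ± 0.36 against EGI-1 (adjusted p = 1.11e-06) and -2.51 ± 0.35 against HuCC-T1 tumors (adjusted p = 1.06e-05). ROCK1, a kinase that promotes myosin contraction, rose in HuCC-A1 by 1.45 ± 0.17 (adjusted p = 1.66e-06) and in HuCC-T1 by 1.41 ± 0.17 (adjusted p = 3.00e-06) against EGI-1 tumors.

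The heavy chains of nonmuscle myosin II also differed. MYH10 averaged 42.0 ± 10.7 CPM in HuCC-A1, 2.86 ± 0.650 CPM in HuCC-T1 and 19.4 ± 4.37 CPM in EGI-1 tumors, and rose by 3.88 ± 0.23 in HuCC-A1 against HuCC-T1 tumors (adjusted p = 5.47e-10). MYH14 averaged 207 ± 82.5 CPM in HuCC-A1, 80.5 ± 40.1 CPM in HuCC-T1 and 616 ± 60.2 CPM in EGI-1 tumors, and fell by 2.94 in HuCC-T1 against EGI-1 tumors (SE 0.36, adjusted p = 3.46e-06). RHOB, a small GTPase, fell in HuCC-A1 by 1.89 against EGI-1 tumors (SE 0.21, adjusted p = 6.17e-07).

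Of 17 tested genes for SRF, its coactivators and targets, 5 rose and 6 fell in HuCC-A1 against EGI-1 tumors (median log2 fold change 0.12), 4 rose and 8 fell in HuCC-A1 against HuCC-T1 tumors (median -0.38), and 7 rose and 5 fell in HuCC-T1 against EGI-1 tumors (median 0.66). SRF itself was lowest in HuCC-T1, where TPM1, ACTA2 and CALD1 were highest. It averaged 65.0 ± 7.46 CPM in HuCC-A1, 24.0 ± 7.19 CPM in HuCC-T1 and 59.1 ± 5.32 CPM in EGI-1 tumors, with a log2 fold change of -1.30 ± 0.17 in HuCC-T1 against EGI-1 tumors (adjusted p = 6.28e-06). CCN2, a secreted protein and target of SRF and YAP, averaged 3.13 ± 1.34 CPM in HuCC-A1, 45.7 ± 24.9 CPM in HuCC-T1 and 1.57 ± 0.451 CPM in EGI-1 tumors, and rose by 4.87 ± 0.42 in HuCC-T1 against EGI-1 tumors (adjusted p = 5.49e-08). In HuCC-A1 against EGI-1 tumors its call (log2 fold change 0.99 ± 0.38, adjusted p = 0.0348) was lost with limma-voom (adjusted p = 0.203) and when any of 6 tumors was left out (adjusted p up to 0.109).

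TNS1, the tensin 1 gene, whose product links actin to focal adhesions, had 944 counts in HuCC-A1, 6674 in HuCC-T1 and 0 in EGI-1 tumors. With the floor of 3 counts over the EGI-1 group, it was at least 385-fold higher in HuCC-A1 and at least 2758-fold higher in HuCC-T1 than in EGI-1 tumors. The medians of the list are the same with TNS1 at these bounds. In HuCC-A1 against HuCC-T1 tumors it fell by 2.90 on the log2 scale (SE 0.60, adjusted p = 9.36e-04), and fell by 2.08 without HuCC-T1 tumor 4, which held 127 CPM. FHL1, a LIM protein of muscle, averaged 75.8 ± 37.4 CPM in HuCC-A1, 12.7 ± 18.7 CPM in HuCC-T1 and 8.03 ± 1.01 CPM in EGI-1 tumors, and the log2 fold change of HuCC-A1 against HuCC-T1 was 2.57 ± 0.62 with all tumors (adjusted p = 0.00197) and 4.09 without HuCC-T1 tumor 5. PDLIM7 and FHL2, adaptors of the actin cytoskeleton, fell in HuCC-A1 against EGI-1 tumors by 2.52 (adjusted p = 6.54e-07) and 2.19 (adjusted p = 1.51e-07) on the log2 scale.

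**Figure D5:**
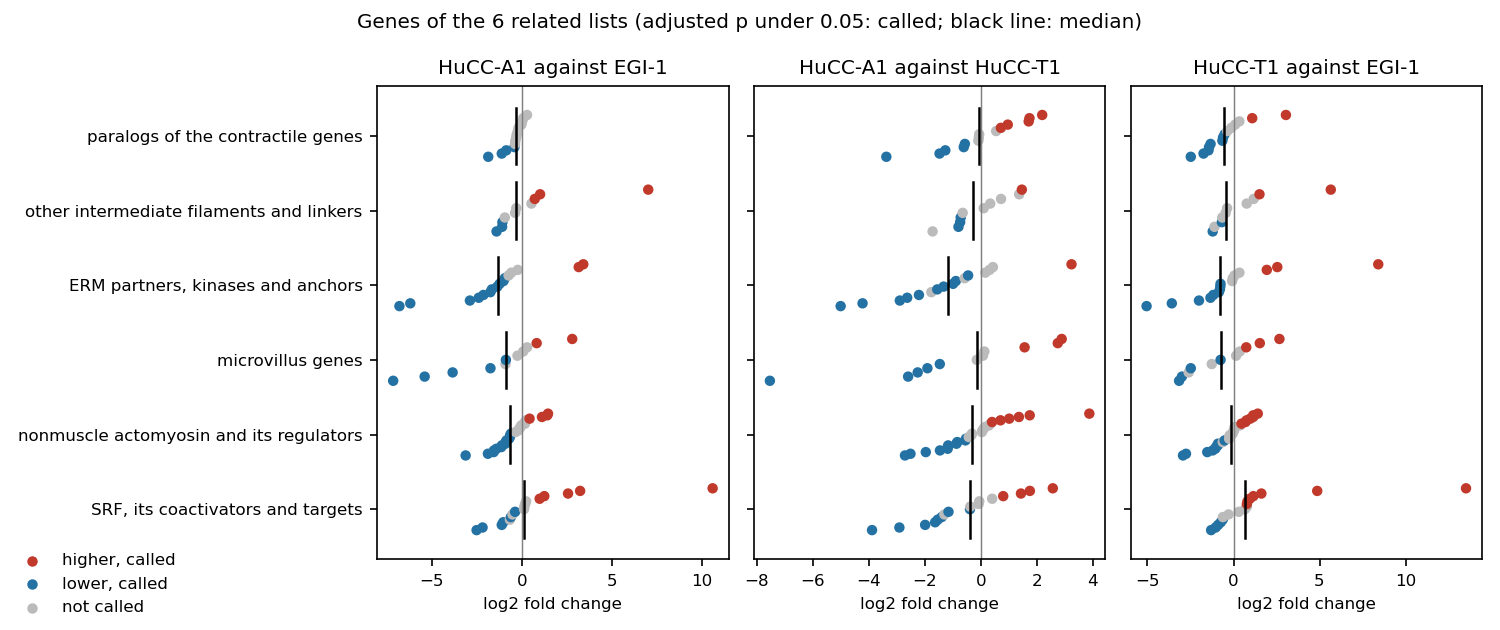
Fitted log2 fold change (horizontal) of the tested genes of 6 lists (rows) in the 3 comparisons. Red points were called higher, blue points called lower and grey points not called, and black lines are medians. The ERM partners lie mostly below 0 in HuCC-A1 against EGI-1 (median -1.30), and the rightmost point of the SRF list against EGI-1 is TNS1, which had no count there and whose fitted value is no bound.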

How the data were processed

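RNA of 15 xenograft tumors was sequenced from a strand-marking library. Per the submitters' processing notes, the authors used CASAVA, HISAT2 2.0.5 (GRCh38) and featureCounts 1.5.0-p3, and deposited counts of reads per gene. How the counting treated strand, which annotation it used and whether mouse reads had been removed is not stated in these sources. All 58735 gene IDs were found in GENCODE release 29, which gave positions and exon lengths.

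Counts were filtered with filterByExpr, scaled by TMM and fitted over all 15 tumors with the quasi-likelihood test of edgeR 4.0.16 (R 4.3.3), with Benjamini-Hochberg adjustment over 21019 genes and 12 residual degrees of freedom. The steps were also run on simulated counts, in which few genes changed, in HuCC-A1 alone and by less than VIM or MSN against EGI-1. In these data most genes were called, so that the simulation does not cover their setting. Groups came from the labels, 5 tumors per model. The members and all lists were chosen with earlier results of these data known. Of each list, the most changed called genes were named in each comparison, up to 2 in the direction with more calls and 1 in the other, leaving out genes below a log2 CPM of 1 on average, some of these are not reported here, and the nearest patterns are the 3 genes with the smallest difference. Alternatives were limma-voom (limma 3.58.1), DESeq2 1.42.0, other scalings and filters, a replicate block and leaving out each tumor. Sequences came from the RefSeq GRCh38.p14 table. Figures and summaries used Python 3.11.15, pandas 2.3.3, numpy 2.4.6, scipy 1.17.1 and matplotlib 3.10.9. Sequencing reads are not independent molecules, so that counting intervals and floors cover counting error only.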

Additional observations from a re-analysis of the deposited data

Results flagged for a closer look

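In groups of 5 tumors, a highest or lowest tumor was singled out where its gap to the next tumor took more of the group's range than Dixon's 95% critical value for 5 samples. Of 109 groups examined, 13 held such a tumor. The critical value assumes normally distributed values, while CPM were used without a log scale, and the groups share tumors. The number of such groups by chance is therefore not known. Of the members, VIM stood at 652 CPM in HuCC-T1 tumor 1 (others 275 to 349 CPM), TPM1 at 175 CPM in HuCC-A1 tumor 2 (others 89.7 to 102 CPM), MYL9 at 6.68 CPM in EGI-1 tumor 1 (others 2.82 to 3.90 CPM) and CALD1 at 41.6 CPM in HuCC-A1 tumor 2 (others 13.0 to 20.6 CPM).

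HuCC-A1 tumor 2 was also highest for ICAM1, at 362 CPM (others 95.7 to 171 CPM), and for BAIAP2L1, at 203 CPM (others 147 to 155 CPM), and lowest for MYH14, at 63.9 CPM (others 217 to 274 CPM). HuCC-A1 tumor 1 was highest for ROCK1, at 106 CPM (others 72.1 to 79.4 CPM). Among HuCC-T1 tumors, tumor 5 was highest for LMNB1, at 97.8 CPM (others 54.5 to 65.3 CPM), for ESPN, at 12.7 CPM (others 1.66 to 3.25 CPM), and for FHL1, at 46.0 CPM (others 2.78 to 6.64 CPM). HuCC-T1 tumor 4 was highest for TNS1, at 127 CPM (others 14.3 to 38.4 CPM), and HuCC-T1 tumor 1 lowest for ICAM1, at 9.40 CPM (others 19.8 to 23.8 CPM). No cause of these values was tested.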

How the results depend on the processing

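Among the fold changes of members and named list genes, the direction turned for RDX and MYL9 in HuCC-T1 against EGI-1 tumors, which overlapped. The log2 fold change of RDX was 0.05 without EGI-1 tumor 5 and 0.08 without HuCC-T1 tumor 1, in place of -0.06. That of MYL9 was -0.06 without EGI-1 tumor 4 and -0.10 without HuCC-T1 tumor 3, in place of 0.06. With at least 10 counts required in each library, which tests fewer genes, 3 microvillus genes were called in HuCC-A1 against EGI-1, 3 in HuCC-A1 against HuCC-T1 and 4 in HuCC-T1 against EGI-1 tumors, against 7, 8 and 7 with the filter used. The other list counts and counts over all genes stayed within 1.5 times. With limma-voom the log2 fold change of CNN1 was 2.43 in HuCC-A1 against HuCC-T1 and 1.31 in HuCC-T1 against EGI-1 tumors, and that of MSN was 12.5 in HuCC-A1 against EGI-1 tumors. The cause was not tested. Of 77 calls of named list genes, 2 were lost under some alternative, those of SDC2 and CCN2 in HuCC-A1 against EGI-1 tumors.

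Between models, tumors with the same replicate number shared only that number. Their deviations from the model means correlated between -0.105 and 0.186 over 15 pairs, 2 of them above 0.1, and 2 of 15 tumors correlated best with their own number in both other models. With the replicate number as a block, 11377 genes were called in HuCC-A1 against EGI-1, 11554 in HuCC-A1 against HuCC-T1 and 10705 in HuCC-T1 against EGI-1 tumors, against 11647, 11841 and 10988 without it. Under the block, CCN2 was not called in HuCC-A1 against EGI-1 tumors (edgeR adjusted p = 0.0684). Depth limits MSN in EGI-1 tumors and CNN1 in every model, where a handful of counts sets the ratio.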
